A study of Mus musculus with 16 samples.

Results

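The let-7 microRNAs of mature mouse sperm were followed in 8 small RNA libraries, as 9 mature arms among the 1621 distinct microRNA arms that could be told apart. They are let-7a-5p, let-7b-5p, let-7c-5p, let-7d-5p, let-7e-5p, let-7f-5p, let-7g-5p, let-7i-5p and miR-98-5p. A read was counted for a member when it was 20 to 26 nt long and began with the first 20 bases of that arm, so its 3′ end was free to vary. All 9 members matched RefSeq entries, and their reads fell into 1670 distinct sequences of 4230643 in the 8 libraries. Members were chosen by sequence, but the family was chosen because its level differed between the diets in these libraries. Levels by diet are therefore given as a description, with no test.

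Sperm came from the cauda epididymis of male mice on a C57BL/6NCrl background, in 4 groups of 2 libraries. Dnmt2-/- HFD and Dnmt2+/+ HFD males received a high-fat diet (HFD), and Dnmt2-/- ND and Dnmt2+/+ ND males received a normal diet (ND). Dnmt2, also called Trdmt1, encodes an RNA cytosine methyltransferase whose best known substrates are tRNAs. The knockout is the Dnmt2tm1Bes allele, backcrossed for more than 5 generations. C57BL/6NCrl males were 6 weeks old when purchased. The age at collection, the length of the diet and the number of males behind a library are not given in the sources used here. No label says that the replicates of a group are separate animals, so the p-values given here reflect differences among libraries and may be technical. Small RNA reads carry no Dnmt2 mRNA and cannot check the knockout.

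The let-7 family is among the most conserved microRNA families of animals. Each hairpin precursor is cut by Drosha and Dicer, and the 5p arm is loaded into an Argonaute protein, where the seed, bases 2 to 8 of the microRNA, pairs with target mRNAs. The LIN28 proteins bind the loop of let-7 precursors and block their maturation in stem cells, and the mature forms accumulate in differentiated tissues. LIN28 also recruits enzymes that add uridines to the 3′ end of the precursor. In sperm, part of the microRNA load is known to be acquired in the epididymis, whose epithelium sheds vesicles that carry small RNA. An isomiR is a form of a microRNA that differs from the annotated one at an end, through cleavage at another position, trimming or added bases.

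The mature sequences are shown because the members share 1 seed and differ at few other bases, so that a single misread base can move a read between members. RefSeq sequences (GRCm38.p6) are given 5′ to 3′ with the seed in capitals.
let-7a-5p: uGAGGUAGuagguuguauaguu
let-7b-5p: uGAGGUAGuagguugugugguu
let-7c-5p: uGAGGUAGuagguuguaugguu
let-7d-5p: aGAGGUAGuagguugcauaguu
let-7e-5p: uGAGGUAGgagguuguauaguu
let-7f-5p: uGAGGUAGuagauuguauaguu
let-7g-5p: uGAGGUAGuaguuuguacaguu
let-7i-5p: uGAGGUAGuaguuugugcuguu
miR-98-5p: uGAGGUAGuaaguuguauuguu

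Counted from 1 at the 5′ end, let-7c differs from let-7a by A19G, let-7e by U9G and let-7f by G12A, and let-7i has 4 differences from let-7a. Of the 36 pairs of members, 4 differ by a single base within the 20 bases used for matching. The most frequent single-base variant of let-7a that is no member made up 0.468% to 0.597% of let-7a reads. If let-7a were misread as let-7e at that rate, it would account for 10.5% to 18.5% of the let-7e reads of a library. let-7a, let-7c and let-7f were each more abundant than let-7e in every library.

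Most members come from clusters, in GRCm38.p6 coordinates. On chromosome 13, let-7d lies 1714 bases from let-7f-1, which lies 261 bases from let-7a-1, all on the minus strand. Their mature arms are at chr13:48536078-48536099, chr13:48537889-48537910 and chr13:48538239-48538260. Another pair lies 621 bases apart on chromosome 15, let-7c-2 at chr15:85706616-85706637 and let-7b at chr15:85707325-85707346, within the noncoding gene Lncppara. Another pair lies 785 bases apart on chromosome X within Huwe1, with let-7f-2 at chrX:151912353-151912374 and miR-98 at chrX:151913229-151913250. let-7g (chr9:106178846-106178867) overlaps Wdr82, and let-7e (chr17:17830366-17830387) overlaps Spaca6. let-7i (chr10:122985698-122985719) overlaps no other gene of the table. let-7a, let-7c and let-7f each have more than 1 hairpin with the same mature arm, so their reads cannot be assigned to a locus.

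The libraries held 10165031 to 19030258 reads, and let-7 took 27760 to 467954 of them. Rates of a substitution are medians over the sequences with at least 10000 reads in a library and the original base at that position. In 3 libraries, both Dnmt2-/- ND and Dnmt2+/+ ND replicate 1, the rate of G29T (base 29 of the read) was 362 to 396 per 10000. It was at most 3.81 in the others. In another 3 libraries, Dnmt2-/- HFD replicate 1 and both Dnmt2+/+ HFD, the rate of C26G was 9.79 to 11.2 per 10000. It was at most 1.31 in the others. The first 3 are set A and the next 3 set B, while Dnmt2-/- HFD replicate 2 and Dnmt2+/+ ND replicate 2, which carry neither mark, are set C. The sets were inferred from these marks, and no label names a batch. Both marks lie past the 3′ end of nearly all let-7 reads. Set B held HFD libraries and set A held ND libraries, so diet and set cannot be told apart there, and set C has a single library per diet, each of another genotype.

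Of the 8 germ cell microRNAs listed as markers of sperm, 7 could be matched, and their summed level was 383 to 839 CPM on HFD and 348 to 1554 CPM on ND (CPM, counts per 1000000 reads of the library). The 7 epithelial microRNAs, led by miR-200c and miR-200b, summed to 614 to 4019 CPM on HFD and 194 to 1943 CPM on ND. Their sums in set B ran from 3069.7 to 4019 CPM, and those in set A from 194 to 418 CPM. Blood microRNAs (6 of 7 matched, miR-144-3p at 0 in all libraries) summed to 6.91 to 15.0 CPM on HFD and 0.946 to 6.96 CPM on ND. The endothelial miR-126a-3p was at 7.82 to 19.2 CPM on HFD and 1.37 to 14.2 CPM on ND. The neural miR-9-5p was at 15.7 to 22.3 CPM on HFD and 3.26 to 20.7 CPM on ND. Of 5 muscle microRNAs only miR-206-3p was matched, at 0.676 to 75.3 CPM on HFD and 0.0759 to 0.158 CPM on ND. The listed liver microRNA, miR-122-5p, could not be matched. Apart from miR-206-3p, the blood microRNAs miR-142a-3p and miR-155-5p were the only listed markers with every HFD library above every ND library. The part of other cell types in the let-7 levels was not tested.

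The 9 members together reached 39941 and 11390.3 CPM in Dnmt2-/- HFD sperm and 45449 and 32694 CPM in Dnmt2+/+ HFD sperm. They were at 2592 and 2111 CPM in Dnmt2-/- ND sperm and 4428 and 3538 CPM in Dnmt2+/+ ND sperm. All 4 HFD libraries lay above all 4 ND libraries. Group means were 25666 ± 20189 CPM (Dnmt2-/- HFD), 39071 ± 9019 (Dnmt2+/+ HFD), 2352 ± 340.4 (Dnmt2-/- ND) and 3983 ± 629 (Dnmt2+/+ ND; SD, n = 2 each). In the share of microRNA reads, let-7 made up 67.5% and 43.7% in Dnmt2-/- HFD and 64.8% and 61.4% in Dnmt2+/+ HFD sperm, against 24.0% and 15.8% in Dnmt2-/- ND and 16.1% and 16.8% in Dnmt2+/+ ND sperm. In bulk sperm RNA, fewer cells or vesicles that carry a microRNA and less of it in each cannot be told apart.

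let-7f, made from hairpins on chromosomes 13 and X, was the most abundant member by the mean of the 8 libraries, and let-7c was by the mean of the 4 ND libraries, with 1178 ± 667 CPM against 906 ± 215 CPM of let-7f (SD, n = 4 each). let-7f had 13448 and 4605 CPM in Dnmt2-/- HFD sperm and 17916 and 14199 CPM in Dnmt2+/+ HFD sperm. It had 852 and 629 CPM in Dnmt2-/- ND sperm and 1019 and 1123 CPM in Dnmt2+/+ ND sperm. The diets did not overlap, and Dnmt2-/- HFD replicate 2 was the lowest HFD library. The log2 fold change of HFD against ND was 3.61 ± 0.58 (SE) in Dnmt2-/- and 3.91 ± 0.58 in Dnmt2+/+ sperm.

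let-7c was next, with 12494 and 3274 CPM in Dnmt2-/- HFD sperm and 12548 and 7749.9 CPM in Dnmt2+/+ HFD sperm. It had 829 and 799.9 CPM in Dnmt2-/- ND sperm and 2177 and 906 CPM in Dnmt2+/+ ND sperm. The diets again did not overlap, and Dnmt2+/+ ND replicate 1 was the highest ND library. Its log2 fold change by diet was 3.27 ± 0.73 in Dnmt2-/- and 2.72 ± 0.71 in Dnmt2+/+ sperm (SE).

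let-7a, the form conserved without change from worms to mammals, had 6008 and 1590.3 CPM in Dnmt2-/- HFD sperm and 6275 and 4280.3 CPM in Dnmt2+/+ HFD sperm. It had 365 and 222 CPM in Dnmt2-/- ND sperm and 428 and 491 CPM in Dnmt2+/+ ND sperm. Every HFD library was above every ND library. The log2 fold change by diet was 3.69 ± 0.69 in Dnmt2-/- and 3.52 ± 0.69 in Dnmt2+/+ sperm (SE).

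The other members followed in the order let-7b, let-7g, let-7i, let-7d, let-7e and miR-98. let-7b was at 921 to 3619 CPM on HFD and 235 to 519 CPM on ND. let-7g was at 509.7 to 3212 CPM on HFD and 103 to 398 CPM on ND, and let-7i at 358 to 1275 CPM on HFD and 97.0 to 295 CPM on ND. let-7d, whose seed is that of the others although its first base is A, was at 64.1 to 416 CPM on HFD and 11.1 to 57.8 CPM on ND. let-7e was at 54.7 to 202 CPM on HFD and 11.6 to 15.5 CPM on ND. miR-98 was at 13.8 to 133 CPM on HFD and 1.37 to 12.5 CPM on ND, with as few as 18 reads in a library.

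All 9 members thus had every HFD library above every ND library. The same held for 26 of 187 tested arms (13.9%), the members among them, and the reverse for 1 (0.535%). Because diet chose the family, nothing is read from that count. Per 1000000 microRNA reads in place of all reads, 6 of the 9 members had no overlap, and let-7d, let-7i and miR-98 overlapped. The 6 are among 10 of 187 arms (5.35%) with HFD above ND, and 8 (4.28%) had HFD below ND. let-7 is itself part of the microRNA reads, at 43.7% to 67.5% on HFD and 15.8% to 24.0% on ND. On that scale let-7d was at 2459 to 7031 on HFD and 537 to 2749.7 on ND, let-7i at 13717 to 18179 on HFD and 4931 to 14020.3 on ND, and miR-98 at 530.5 to 2031 on HFD and 80.0 to 596 on ND. let-7g kept a gap, with 19552 to 51318 on HFD and 4270.0 to 18931 on ND.

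**Figure D1:**
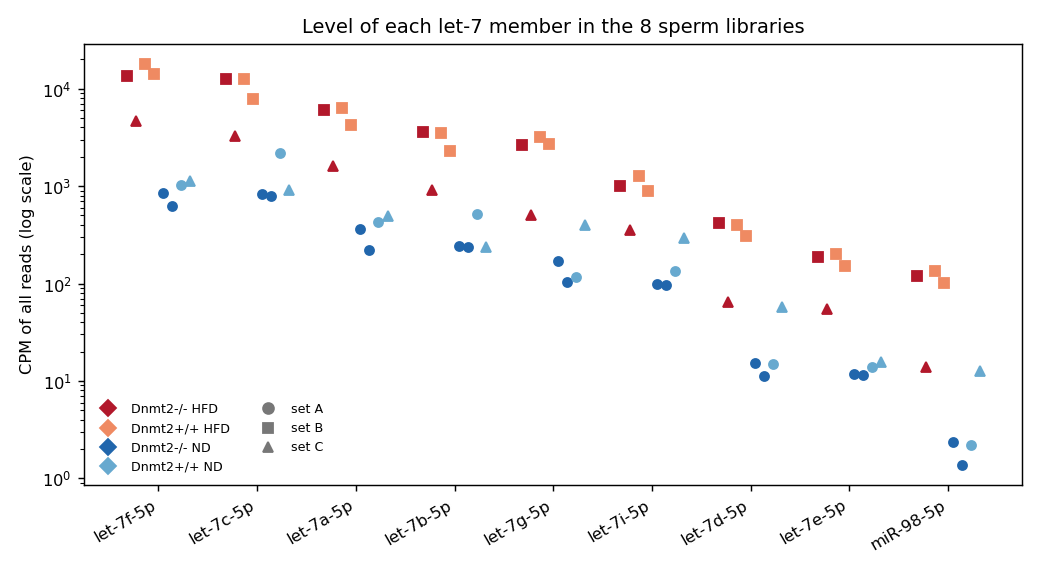
CPM of all reads for each let-7 member (log axis) in the 8 sperm libraries, ordered by mean level. Each point is 1 library, coloured by group and shaped by set; the 4 HFD libraries lie above the 4 ND libraries in each member, and the set C libraries (triangles) lie close together for let-7d, let-7g, let-7i and miR-98.

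Within set C, the ratios of the diets were unequal among the members. The HFD library (Dnmt2-/-) was over the ND library (Dnmt2+/+) by 4.10-fold for let-7f, 3.85-fold for let-7b, 3.61-fold for let-7c, 3.52-fold for let-7e and 3.24-fold for let-7a. For let-7g the ratio was 1.28, for let-7i 1.21, for let-7d 1.11 and for miR-98 1.10. let-7d shares its cluster with let-7a-1 and let-7f-1, and miR-98 shares one with let-7f-2. The epithelial markers ran the other way in this pair, with 614 CPM in the HFD library and 1943 CPM in the ND library, and their part in the result was not tested. The set C pair has no replicate, so these ratios carry no test.

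The size of the diet difference depended on the scaling. Over the 187 tested arms, the median log2 fold change of HFD against ND was 2.05 in Dnmt2-/- and 0.61 in Dnmt2+/+ sperm when all reads set the library size. With TMM factors, which centre the typical arm, these medians were -0.08 and -0.19. The let-7 medians were then 1.22 in Dnmt2-/- and 2.0 in Dnmt2+/+ sperm, with 9 of 9 members higher on HFD in both. On all reads they were 3.52 in both genotypes. With the set as a term, the let-7 medians were 2.06 in Dnmt2-/- and 1.51 in Dnmt2+/+ sperm. Then 9 of 9 and 8 of 9 members were higher on HFD, and the medians of all arms were -0.82 and -0.53. Only set C held both diets, in 1 HFD (Dnmt2-/-) and 1 ND (Dnmt2+/+) library, so both values rest on that pair. Its libraries also differ in genotype. The fit corrects for this by the genotype difference within set A for the Dnmt2-/- value, and within set B for the Dnmt2+/+ value.

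let-7f took 33.7% to 43.4% of let-7 reads on HFD and 23.0% to 32.9% on ND. let-7c took 23.7% to 31.3% on HFD and 25.6% to 49.2% on ND. let-7a took 13.1% to 15.0% on HFD and 9.67% to 14.1% on ND. let-7b took 6.97% to 9.06% on HFD and 6.76% to 11.7% on ND. let-7f shares did not overlap between the diets, and those of let-7c, let-7a and let-7b did.

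The rank order of neighbours depended on the library. let-7f exceeded let-7c in 6 of 8 libraries, with ratios from 0.468 to 1.83. let-7a exceeded let-7b in 6, let-7b exceeded let-7g in 6, let-7g exceeded let-7i in 7, and let-7d exceeded let-7e in 7. The order of these neighbours was thus not the same in every library. let-7c exceeded let-7a in all 8 libraries, by 1.81-fold to 5.08-fold, and let-7i exceeded let-7d, and let-7e exceeded miR-98, in all 8 as well. In Dnmt2+/+ ND replicate 1, let-7c alone was 49.2% of let-7 reads, while in Dnmt2+/+ ND replicate 2 let-7g was 11.2%, let-7i 8.33% and let-7d 1.63%, each the highest share of that member in the 8 libraries.

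**Figure D2:**
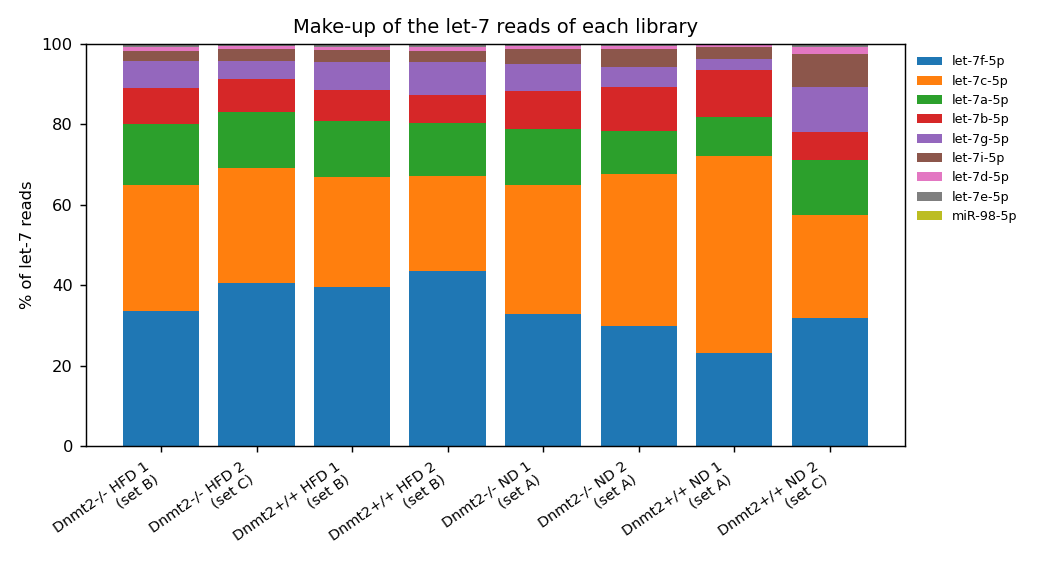
Share of let-7 reads (%) taken by each member, stacked to 100% for each library, with the set under its name. let-7f and let-7c together fill most of every bar, and let-7c reaches 49.2% in Dnmt2+/+ ND replicate 1.

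Genotype, which had no part in the choice of the family, was tested within each diet over all 187 arms. On ND, none of the 187 arms passed at an adjusted p of 0.05 in edgeR (0.0% called; 26 at an unadjusted p under 0.05, and 0 called by DESeq2). On HFD none passed either (0.0% called; 0 at an unadjusted p under 0.05, and 0 called by DESeq2). All 9 let-7 members were tested and 0 passed in each. Set was no term in this fit and was uneven between the genotypes. On ND only Dnmt2+/+ had a set C library, and on HFD only Dnmt2-/- had one. Differences between sets thus enter both the genotype differences and the spread. With the set as a term, the let-7 median log2 difference was -0.46 on ND and 0.08 on HFD, beside -0.14 and -0.24 over all arms. let-7f differed between Dnmt2-/- and Dnmt2+/+ sperm by -0.53 ± 0.52 (SE) on the log2 scale on ND (edgeR adjusted p = 0.413), with a 95% interval of -1.72 to 0.66. let-7c differed by -0.92 ± 0.67 (adjusted p = 0.349) and let-7a by -0.65 ± 0.63 (adjusted p = 0.413). On HFD these differences were -0.83 ± 0.52 for let-7f, -0.36 ± 0.67 for let-7c and -0.47 ± 0.63 for let-7a, each with an adjusted p of 0.971 in edgeR. The let-7f interval on HFD ran from -2.03 to 0.36. Leaving out Dnmt2-/- HFD replicate 1 or replicate 2 moved the HFD difference of let-7f to -1.80 or -0.26. Without replicate 1, a set C library is compared with set B, so genotype and set cannot be told apart. Without replicate 2, all HFD libraries are of set B.

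All 9 members had negative point estimates in Dnmt2-/- against Dnmt2+/+ sperm on ND, with a median of -0.91, but the median of all 187 arms was -1.65. With TMM factors the median of all arms was 0.02, that of let-7 was 0.32, and 7 of 9 members were positive. On HFD the let-7 median was -0.55 and that of all arms -0.51. With TMM factors 3 of 9 let-7 members were positive there, so no direction by genotype is given. Without Dnmt2+/+ ND replicate 1, 84 of 217 tested arms (38.7%) passed on ND, all lower in Dnmt2-/- sperm, and 0 of the 9 members did. let-7c then differed by -0.15 on the log2 scale. That fit sets Dnmt2-/- ND libraries of set A against a Dnmt2+/+ ND library of set C, so genotype and set cannot be told apart. The median of all arms was -2.35 there. It was -0.13 without Dnmt2+/+ ND replicate 2, which left only set A libraries on ND. Within set A, let-7 averaged 2352 CPM in the Dnmt2-/- ND libraries and was at 4428 CPM in the Dnmt2+/+ ND library. Within set B it was at 39941 CPM in the Dnmt2-/- HFD library and averaged 39071 CPM in the Dnmt2+/+ HFD libraries.

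The interaction of diet and genotype passed for 0 of 187 arms (0.0%; 2 at an unadjusted p under 0.05, and 0 called by DESeq2). It was -0.30 ± 0.73 (SE) for let-7f, 0.56 ± 0.95 for let-7c and 0.17 ± 0.88 for let-7a on the log2 scale, with edgeR adjusted p of 0.826, 0.789 and 0.920.

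The annotated 22-nt form was the most frequent let-7 form in every library, and the other reads were isomiRs. The annotated form made up 49.5% to 55.6% of let-7 reads on HFD and 55.7% to 57.9% on ND. By set, it made up 49.5% to 50.6% in set B and 55.7% to 57.9% in set A. In set C it made up 55.6% in the HFD library and 56.6% in the ND library. Shorter reads that matched the hairpin made up 15.3% to 19.1% on HFD and 13.9% to 15.9% on ND. Longer reads that matched it made up 12.2% to 14.4% on HFD and 10.3% to 17.4% on ND. Reads with at least 1 3′ base that the hairpin does not hold made up the rest, 10.9% to 22.2% on HFD and 11.1% to 17.6% on ND. Reads of 22 nt were 60.0% to 62.4% of let-7 reads on HFD and 58.6% to 65.2% on ND.

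Reads with the 5′ end, which sets the seed, shifted by 1 base were rare. Larger shifts and untemplated 5′ bases were not counted. Reads that started at base 2 amounted to 0.0374% to 0.0484% of let-7 reads on HFD and 0.0205% to 0.0476% on ND. Those that started 1 base before the arm amounted to 0.0812% to 0.0998% on HFD and 0.143% to 0.185% on ND. The shifted starts lie outside the counted reads and are given relative to them.

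The leading isomiRs of the 3 most abundant members differed by 1 base at the 3′ end. They are printed as in the reads, with T for U and the bases after the matched 20 in capitals.
let-7f-5p, 22 nt: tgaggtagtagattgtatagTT
let-7f-5p, 21 nt: tgaggtagtagattgtatagT
let-7c-5p, 22 nt: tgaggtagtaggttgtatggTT
let-7c-5p, 23 nt: tgaggtagtaggttgtatggTTT
let-7a-5p, 22 nt: tgaggtagtaggttgtatagTT
let-7a-5p, 21 nt: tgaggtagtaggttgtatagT

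The 22-nt form of let-7f was 53.4% to 57.4% of its reads on HFD and 58.7% to 61.6% on ND. Its 21-nt form was 15.0% to 18.7% on HFD and 14.9% to 16.2% on ND. For let-7c, the 22-nt form was 48.7% to 57.4% on HFD and 56.4% to 62.3% on ND, and the second form was the 23-nt one, at 12.5% to 14.6% on HFD and 12.9% to 17.3% on ND. The 22-nt form of let-7a was 48.3% to 53.3% on HFD and 51.5% to 54.9% on ND. Its 21-nt form was 15.9% to 18.2% on HFD and 16.5% to 18.6% on ND. Diet and set cannot be told apart in sets A and B, which supply most of the libraries in these ranges.

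Tested as 50460 distinct sequences, of which 292 were let-7 isomiRs, none passed for genotype on ND, genotype on HFD or the interaction in edgeR (0.0% called each). The number with an unadjusted p under 0.05 was 2217, 1818 and 2098 in these 3 tests, and DESeq2 called 43, 45 and 28. Of the let-7 isomiRs, 0 passed in either tool. Without Dnmt2+/+ ND replicate 1, 2455 of 78286 sequences (3.14%) passed for genotype on ND, among them 1 of 349 let-7 isomiRs. Genotype and set cannot be told apart on ND in that fit. With all 8 libraries, the 22-nt form of let-7f differed by -0.51 ± 0.69 (SE) on the log2 scale between Dnmt2-/- and Dnmt2+/+ sperm on ND. On HFD it differed by -0.82 ± 0.69. For its 21-nt form these differences were -0.54 ± 0.71 on ND and -0.74 ± 0.71 on HFD. The 22-nt form of let-7c differed by -1.0 ± 0.78 on ND and -0.33 ± 0.78 on HFD, and that of let-7a by -0.68 ± 0.76 on ND and -0.43 ± 0.76 on HFD. The 23-nt form of let-7c differed by -0.77 ± 0.82 on ND and -0.42 ± 0.81 on HFD, and the 21-nt form of let-7a by -0.69 ± 0.79 on ND and -0.41 ± 0.78 on HFD. Each of these 6 forms had an adjusted p of 1 in edgeR in both diets.

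let-7b had the lowest share of 22-nt reads of the members in every library. Its reads were 22 nt in 34.0% to 38.2% of cases on HFD and 34.8% to 41.7% on ND, and 23 nt in 29.1% to 33.0% on HFD and 26.9% to 30.4% on ND. Its mean length was 22.3 to 22.5 nt in the 8 libraries, against 21.9 to 22.0 nt for let-7f. let-7g had 69.4% to 72.5% of its reads at 22 nt on HFD and 72.1% to 74.3% on ND. let-7i had 17.5% to 28.4% of reads at 23 nt on HFD and 12.1% to 22.0% on ND, and let-7d, of the same cluster as let-7a-1, had 21.8% to 25.3% on HFD and 18.6% to 31.5% on ND.

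**Figure D3:**
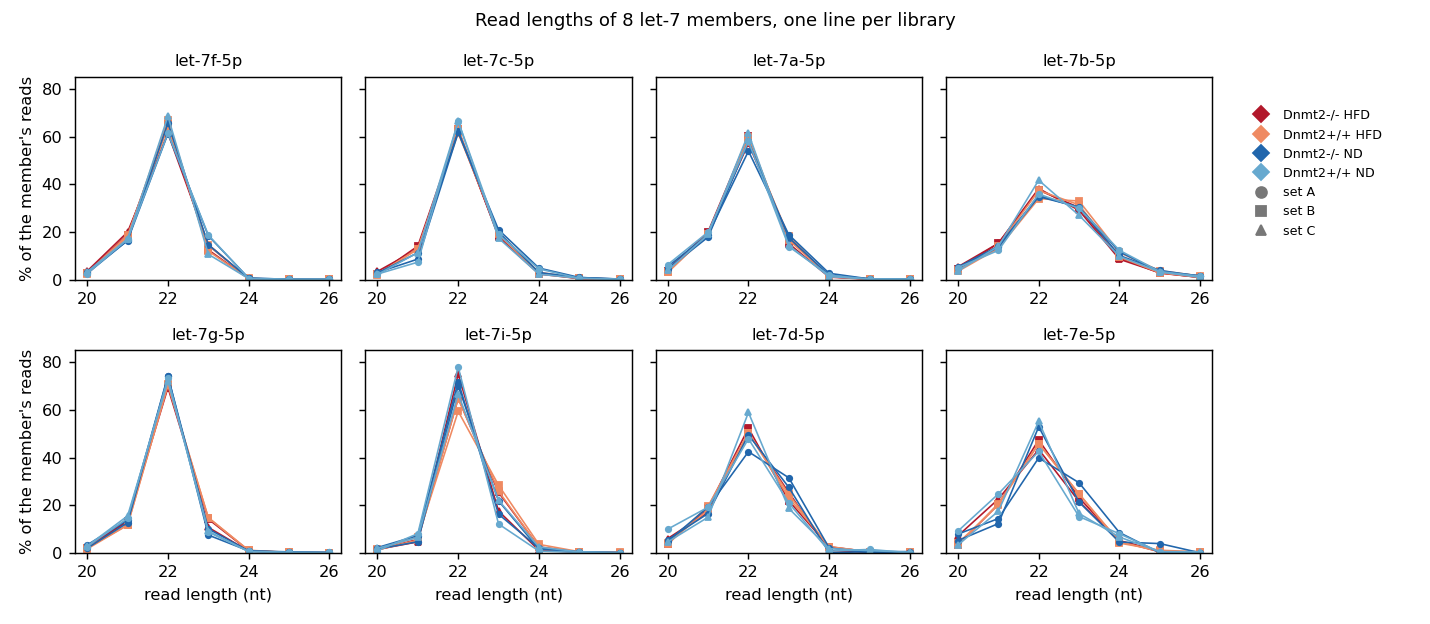
Read length (nt) against the share of the member's reads (%), 1 line per library, for the 8 members with at least 100 reads in every library. The peak is at 22 nt in each, and let-7b has a second high value at 23 nt, at 26.9% to 33.0% of its reads.

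The share of reads longer than the annotated form was tested by genotype with limma, as log2 odds, in the 45 arms with at least 100 reads in every library. That filter kept 8 let-7 members and left out miR-98. None of the 45 arms passed on ND or HFD (0.0% called each; 1 and 0 at an unadjusted p under 0.05). let-7f differed by 0.26 ± 0.38 (SE) between Dnmt2-/- and Dnmt2+/+ sperm on ND, let-7c by 0.26 ± 0.30 and let-7a by 0.48 ± 0.30, each with an adjusted p of 0.799 in limma. On HFD these differences were 0.04 ± 0.38, -0.14 ± 0.30 and -0.13 ± 0.30, with adjusted p of 0.958, 0.872 and 0.872 in limma. All 8 members were positive on ND, with a median of 0.26 beside 0.26 over all 45 arms, and 1 of 8 on HFD, with a median of -0.15 beside -0.20. For shorter reads, none of the 45 arms passed on ND or HFD (0.0% called each; 1 at an unadjusted p under 0.05 in each). let-7f differed by -0.05 ± 0.19 on ND and by 0.15 ± 0.19 on HFD, with adjusted p of 0.938 and 0.982 in limma.

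What a 3′ extension can be called depends on the hairpin. The mature arm is shown in lower case with the next 6 bases of the hairpin in capitals, for the members whose added U can or cannot be read from the precursor.
let-7f-1: ugagguaguagauuguauaguuGUGGGG
let-7f-2: ugagguaguagauuguauaguuUUAGGG
let-7b: ugagguaguagguugugugguuUCAGGG
let-7g: ugagguaguaguuuguacaguuUGAGGG
let-7e: ugagguaggagguuguauaguuGAGGAA
let-7i: ugagguaguaguuugugcuguuGGUCGG
miR-98: ugagguaguaaguuguauuguuGUGGGG

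Where the next base is U in a hairpin of the member, as in let-7f-2, let-7b and let-7g, a 23-nt read ending in U counts as templated, and an added U there is hidden. let-7e, let-7i and miR-98 have G at that position, so a U shows as an addition. let-7i had reads with 1 untemplated U in 10.5% to 19.4% of cases on HFD and 6.80% to 13.5% on ND. let-7e had them in 16.8% to 18.2% on HFD and 10.8% to 17.6% on ND, and miR-98 in 3.26% to 7.71% on HFD and 0% to 9.68% on ND. In Dnmt2-/- ND replicate 2, the miR-98 value of 0% rests on 18 reads. let-7b, whose U would be a second one, had 3.75% to 5.01% on HFD and 3.80% to 5.65% on ND. Reads of this kind were below 0.5% for let-7a, let-7c, let-7d, let-7f and let-7g in every library. A hairpin of let-7a, let-7c, let-7d and let-7f has UU after the arm, so only a U added after both would show there. The shares of these members are thus not at like positions to those of let-7b, let-7e, let-7i and miR-98.

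The forms with an untemplated U, shown with that base in capitals, were among the 5 most abundant forms of their member.
let-7i-5p, 23 nt: tgaggtagtagtttgtgctgttT
let-7e-5p, 23 nt: tgaggtaggaggttgtatagttT
let-7b-5p, 24 nt: tgaggtagtaggttgtgtggtttT

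let-7i values in set B, 15.9%, 16.1% and 19.4%, lay above the other 5 libraries, which had 6.80% to 13.5%. In the set C pair, the HFD library had 10.5% and the ND library 13.2%. let-7b also had the most reads with 2 or more untemplated bases, 10.2% to 13.3% on HFD and 12.1% to 13.2% on ND. Those shares were 0.65% to 0.89% for let-7f on HFD and 0.66% to 0.78% on ND. The hairpins hide different bases after the arm, so the shares of let-7b and let-7f are not at like positions.

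**Figure D4:**
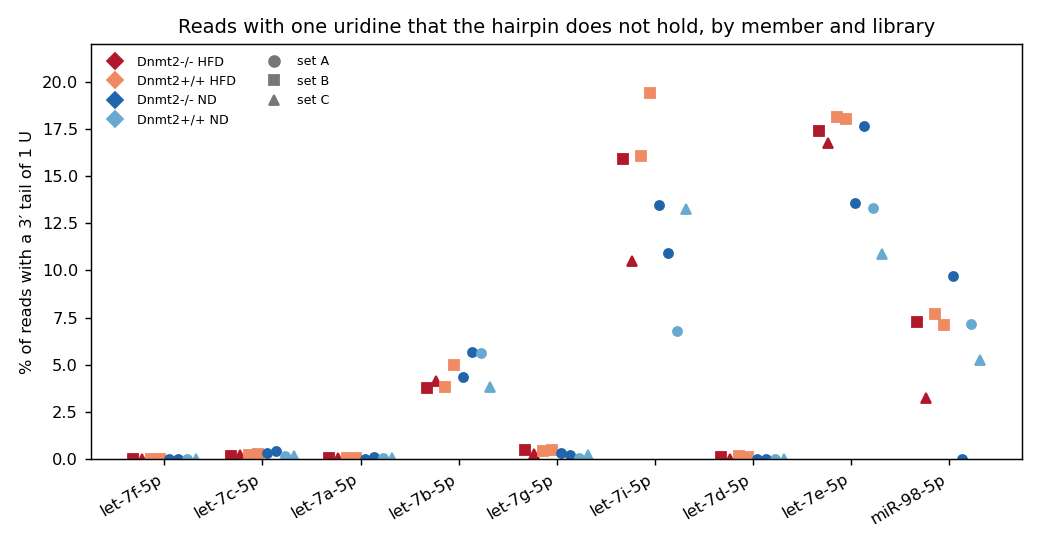
Share of a member's reads (%) with 1 untemplated 3′ U, by member and library. let-7e and let-7i reach 18.2% and 19.4%. let-7f, let-7c, let-7a, let-7g and let-7d stay below 0.5%, where a first added U counts as templated, and in all but let-7g a second as well.

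Among single untemplated bases, C was the most frequent over the family in 6 of 8 libraries. An added U that a hairpin of the member holds counts as templated and is left out of this ranking. The untemplated C came mostly after base 21, in place of the last U. The forms of let-7f and let-7a that carry it are shown with the C in capitals.
let-7f-5p, 22 nt: tgaggtagtagattgtatagtC
let-7a-5p, 22 nt: tgaggtagtaggttgtatagtC

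Of let-7 reads, 12.9% and 4.44% carried it in Dnmt2-/- HFD sperm and 11.3% and 13.0% in Dnmt2+/+ HFD sperm, against 4.31% and 2.49% in Dnmt2-/- ND sperm and 2.83% and 8.80% in Dnmt2+/+ ND sperm. The diets overlapped. The shares were 11.3% to 13.0% in set B and 2.49% to 4.31% in set A, and in set C 4.44% in the HFD library and 8.80% in the ND library, the opposite order to the diet means of 10.4% ± 4.04 on HFD and 4.61% ± 2.91 on ND (SD, n = 4 each). All 8 let-7 members with at least 100 reads in every library had each set B library above each set A library, and so did 32 of the 37 other arms. Over all other microRNA arms, 8.78% and 3.17% of reads carried such a C in Dnmt2-/- HFD, 7.38% and 8.71% in Dnmt2+/+ HFD, 3.19% and 1.92% in Dnmt2-/- ND and 2.35% and 5.74% in Dnmt2+/+ ND sperm. The source of the added C was not tested.

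A single untemplated A was steadier, at 2.91% to 5.11% of let-7 reads on HFD and 3.33% to 4.02% on ND. Among the members, let-7i had it in 6.60% to 9.33% on HFD and 5.02% to 8.38% on ND, and let-7b in 4.92% to 7.76% on HFD and 6.03% to 7.13% on ND.

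**Figure D5:**
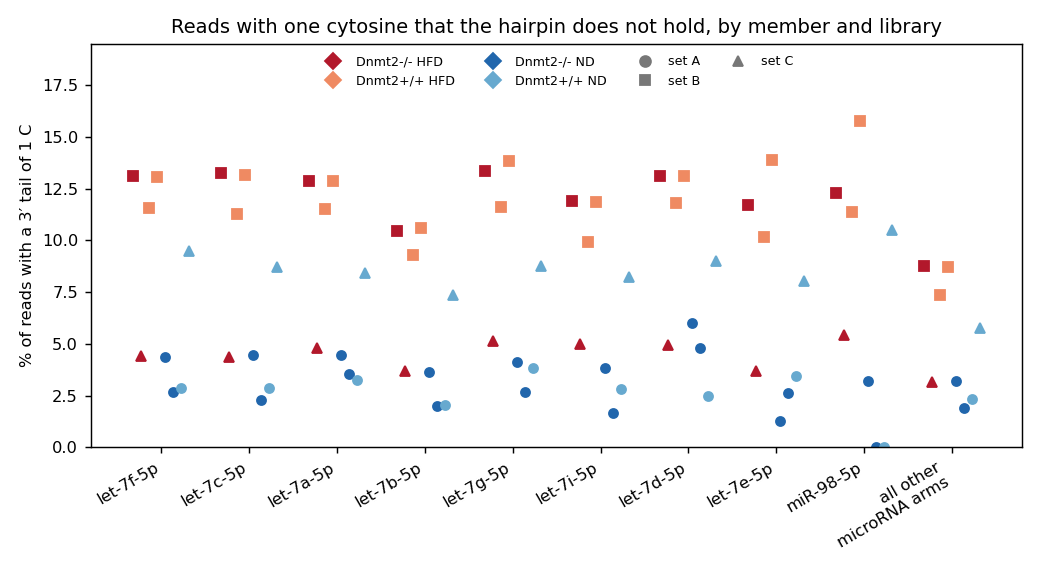
Share of reads (%) with 1 untemplated 3′ C for each let-7 member and for all other microRNA arms, by library. Squares (set B) lie above circles (set A) for the 8 members with at least 100 reads in every library and for all other arms. For all other arms, the Dnmt2+/+ ND triangle of set C, at 5.74%, lies above the Dnmt2-/- HFD triangle, at 3.17%.

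The microRNAs that share a precursor transcript with let-7 summed to less than the family in every library. let-7c-1 is known to be transcribed with miR-99a and miR-125b-2, let-7e with miR-99b and miR-125a, and let-7a-2 with miR-100 and miR-125b-1. The 5 partner arms summed to 619 and 344 CPM in Dnmt2-/- HFD sperm and 730.5 and 488 CPM in Dnmt2+/+ HFD sperm, against 199 and 143 CPM in Dnmt2-/- ND sperm and 218 and 578 CPM in Dnmt2+/+ ND sperm. The diets overlapped for each of the 5. In set C the partners summed to 344 CPM in the HFD library and 578 CPM in the ND library, most of it miR-99a, at 200.3 and 430.3 CPM in these libraries. miR-99b had 45.7 CPM in the HFD library and 33.4 CPM in the ND library, and miR-100 had 56.9 and 47.4 CPM. miR-99b exceeded let-7e in all 4 ND libraries, with 14.4 to 33.4 CPM against 11.6 to 15.5 CPM. All 5 were tested by genotype, and 0 passed on ND, on HFD or in the interaction.

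The passenger arms were nearly absent. The 11 distinct 3p arms of let-7 and miR-98 hairpins summed to 4.96 to 6.22 CPM on HFD and 1.97 to 7.99 CPM on ND. let-7a-2-3p, let-7g-3p and let-7i-3p were at 0 in all 8 libraries, where a count of 0 allows up to 3 reads, or 0.158 to 0.295 CPM. let-7d-3p was the highest, at 2.26 to 4.46 CPM on HFD and 1.37 to 4.54 CPM on ND. Only 2 of the 11 had enough reads to be tested, and 0 passed by genotype.

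Among 72 other arms with a mean of at least 10 CPM, the 5 whose log2 level was most like that of summed let-7 over the 8 libraries were miR-196a-5p (Pearson r = 0.941), miR-206-3p (0.941), miR-672-5p (0.926), miR-7a-5p (0.920) and miR-10a-5p (0.910). These values describe 8 libraries that share diet and set, and carry no test. Each member against the sum of the others gave r of 0.950 to 0.994. miR-206-3p had 64.7 to 75.3 CPM in the set B libraries and 0.0759 to 0.158 CPM in the set A libraries. In set C it had 0.676 CPM in the HFD library and 0.147 CPM in the ND library. miR-10a-5p, one of the most abundant microRNAs of these libraries, was at 2759.6 to 3363 CPM on HFD and 1102 to 2087 CPM on ND.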

How the data were processed

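Per the labels' protocols, RNA of cauda sperm was extracted with Trizol and turned into libraries by the TruSeq small RNA kit. The authors deposited, for each of the 8 sperm libraries, distinct read sequences of 18 to 44 nt with their counts. Adapter trimming and filtering are not given in the sources used here, and the submitters' processing notes name the builds mm10 and GRCm38. The 3T3 libraries of the series were not used. Reads were assigned to arms of the RefSeq table (GRCm38.p6) by their first 20 bases, at 20 to 26 nt, and arms with the same 20 bases were merged. A 3′ base was called untemplated where no hairpin of the arm holds it at that position.

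Counts were fitted with edgeR 4.0.16 (quasi-likelihood, R 4.3.3), with the 4 groups in one fit, filterByExpr and the total reads as library size, over 187 arms and over 50460 distinct sequences. Shares of longer and shorter reads were fitted with limma 3.58.1 as log2 odds with a pseudocount of 0.5. p-values were adjusted by Benjamini-Hochberg over each whole table. Diet was used to choose the family, so its fold changes carry no p. The scripts were tested on simulated data.

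Each library held 10165031 to 19030258 reads, so 3 counts, the upper limit of a count of 0, equal 0.158 to 0.295 CPM. PCR copies could not be removed for want of molecular identifiers, so such limits cover counting error only. The members and lists were chosen with earlier results of these data known. By a rule, the 3 members with the highest mean CPM are given with full statistics, with their 2 leading isomiRs, and the 5 arms most like let-7 are named. Replicate numbers came from the titles and did not pair the libraries. Alternatives were TMM factors, DESeq2 1.42.0, no filter, a replicate block, the inferred set as a term, other scalings and match rules, and leaving out each library. Figures were drawn with matplotlib 3.10.9.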

Additional observations from a re-analysis of the deposited data

Results flagged for a closer look

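Of 58 sets of 4 libraries of 1 diet checked, 8 had a library whose gap to the nearest other, divided by the whole range, passed Dixon's critical value at 95%, and chance flags about 1 in 20. In Dnmt2-/- ND replicate 1, let-7 made up 24.0% of microRNA reads, against 15.8% to 16.8% in the other ND libraries. Dnmt2+/+ ND replicate 1 had 519 CPM of let-7b, against 235 to 245 CPM, and 2177 CPM of let-7c, against 799.9 to 906 CPM. In the same library, shorter reads that match the hairpin were 13.9% of let-7 reads, against 15.6% to 15.9%. Dnmt2+/+ ND replicate 2 had 57.8 CPM of let-7d, against 11.1 to 15.2 CPM, and 12.5 CPM of miR-98, against 1.37 to 2.35 CPM. miR-98 was 0.354% of let-7 reads there, against 0.0498% to 0.0907% in the other ND libraries. On HFD, miR-98 was 0.121% of let-7 reads in Dnmt2-/- HFD replicate 2, against 0.294% to 0.309% in the other HFD libraries.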

How the results depend on the processing

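The cause of each change below was not tested. With library sizes set by microRNA reads, the log2 ratio of summed let-7 on HFD to ND was 1.48 in Dnmt2-/-, 1.94 in Dnmt2+/+ and 1.71 in both genotypes. Set by reads of 18 to 26 nt it was 2.39, 2.74 and 2.58, and by TMM-scaled sizes, chosen after seeing the data, 1.23, 1.55 and 1.39. In set C alone, also chosen after seeing the data, it was 1.69. Leaving out 1 library at a time gave 2.28 (without Dnmt2-/- HFD replicate 1) to 4.09 in Dnmt2-/-. Matching the first 18 bases gave 59.0% of let-7 reads at 22 nt on HFD and 58.8% on ND. The count of arms called for genotype on ND ran from 0 to 84 with 1 library left out, the highest without Dnmt2+/+ ND replicate 1. The count of sequences called ran from 0 to 2455 for genotype on ND and from 0 to 865 for the interaction, both highest without that library (1 and 0 let-7 isomiRs among them), and from 0 to 171 for genotype on HFD, highest without Dnmt2-/- HFD replicate 1. DESeq2 called 43, 45 and 28 sequences. Longer reads on ND gave 0 to 7 arms called, the highest without Dnmt2+/+ ND replicate 1. Shorter reads on HFD gave 0 to 1, with 1 arm without either Dnmt2-/- ND replicate. A pseudocount of 5 called 1 arm for shorter reads on ND. Replicate numbers did not pair the libraries (correlations of deviations between -0.56 and 0.58 over arms). With a replicate block, 0 arms and 0 sequences were called for genotype, and 1 arm for shorter reads on HFD. Signs by genotype turned with the scaling, none past the threshold. On ND, let-7a was 0.49 (TMM) and 0.34 (DESeq2), and let-7f 0.58 and 0.44. On HFD, let-7a was 0.0099 (TMM) and 0.19 (set as a term), and let-7c 0.13 (TMM), 0.066 (DESeq2) and 0.30 (set as a term). The interaction was -0.48 (TMM) and -0.39 (DESeq2) for let-7a and 0.20 (set as a term) for let-7f. With 1 library left out, genotype on HFD ran from -1.73 to 0.19 for let-7a, -1.63 to 0.30 for let-7c and -1.80 to -0.26 for let-7f, genotype on ND from -1.05 to -0.33 for let-7a, -1.42 to -0.15 for let-7c and -0.77 to -0.33 for let-7f, and the interaction from -1.09 to 0.83 (let-7a), -0.71 to 1.22 (let-7c) and -1.27 to 0.28 (let-7f). Where 1 library of a group is left, it is assumed to vary like the others. Genotype and inferred set could not be told apart on ND without Dnmt2+/+ ND replicate 1, nor on HFD without Dnmt2-/- HFD replicate 1. The test of sequences without a filter was not run. Depth limits miR-98, with 18 reads at the lowest.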
